A study of Mus musculus with 15 samples.

Results

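The genes described here are Trp53, its antagonist Mdm2, the CDK inhibitors Cdkn1a, Cdkn1b, Cdkn2a, Cdkn2b and Cdkn2c, and Mtap, the neighbour of the Cdkn2a-Cdkn2b locus. They are 8 of the 27179 gene identifiers counted, and they were found by matching symbols to Entrez gene identifiers. They were chosen by their counts and their differences between populations in earlier results of these data, so their levels and differences are given as a description, with no test. The 15 RNA libraries came from 4T1, a line of mouse mammary carcinoma cells, grown as 5 populations in 3 biological replicates each. The populations E1, E2, A and M were each raised from 1 parental cell after transfection with a plasmid, pNLS-iRFP670, and carry the genotype label iRFP670 expressing. The parental population, from which they came, carries the genotype label WT. Each of E1, E2, A and M is thus 1 clone, and a difference between 1 clone and the parental population cannot be told apart from transfection, selection and single-cell outgrowth. Only the clones are described as grown with G418, which was taken out of the medium before harvest. RNA was taken after 72 h in culture, at about 80% confluency.

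The protein p53, encoded by Trp53, is a transcription factor that is stabilised by DNA damage and other stresses and that turns on genes of cell cycle arrest, DNA repair and cell death. Mdm2 encodes a ubiquitin ligase that sends p53 to the proteasome, and is itself a p53 target. Cdkn1a (p21) and Cdkn1b (p27) encode inhibitors of cyclin-CDK complexes, while Cdkn2a (p16Ink4a), Cdkn2b (p15Ink4b) and Cdkn2c (p18Ink4c) encode inhibitors of CDK4 and CDK6, the kinases that phosphorylate the RB protein. Cdkn2a also encodes p19Arf, which binds Mdm2, from a promoter of its own. Mtap encodes methylthioadenosine phosphorylase, the first enzyme of methionine salvage, and is often lost together with Cdkn2a in tumours. The 4T1 line has been described as lacking functional p53 protein, which RNA counts do not measure.

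Total counts ranged over 20143111 to 36831801 per library, with 13173 to 14294 genes detected. An unnamed identifier took 36.8% to 49.3% of a library, with the highest shares in E2 replicate 1 (49.1%) and parental replicate 1 (49.3%), and 6164768 to 14206491 counts per library lay outside the 6 genes with the most counts. Values below are CPM, gene counts scaled to the library total after TMM adjustment. Of 7 epithelial markers, 6 were detected and Krt5 was at 0 in all libraries, with a summed level of 269 to 631 CPM. Leukocyte markers summed to 0.14 to 1.24 CPM (4 of 7 at 0 in all libraries), and endothelial markers to 0 to 0.425 CPM (1 of 5 at 0). Fibroblast markers summed to 21.1 to 33.8 CPM in A, against 3.15 to 12.1 CPM in the other 12 libraries, with Dcn, Lum and Thy1 at 0 in all of them. The sum in A was mostly Pdgfra, at 26.4 CPM. Summed proliferation markers were 858 to 1066 CPM for E1, 978 to 1126 CPM for E2, 676 to 722 CPM for A, 391, 969 and 497 CPM in M replicates 1, 2 and 3, and 539 to 697 CPM for the parental population. Their part in the levels described here was not tested, and with bulk RNA a change in the share of cells that use a gene cannot be told apart from a change in RNA per cell.

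Cdkn2a and Cdkn2b had 0 counts in each of the 15 libraries, clones and parental population alike, while Mtap beside them was the most abundant of the 8 genes. A count of 0 allows a level of up to 0.00691 CPM for each, taking 3 counts over the TMM-adjusted totals of all 15 libraries as the limit. These limits cover counting error only, since PCR copies could not be told from separate molecules. Per kilobase of exon, the mean level of Mtap was 84.8 CPM, at least 14390-fold higher than the limit for Cdkn2a and at least 17070-fold higher than the limit for Cdkn2b. Of all identifiers, 33.7% had 0 counts in all libraries, as did 28.1% of the protein-coding ones. Whether the genome of these cells carries both genes was not measured.

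The 3 genes lie side by side on mouse chromosome 4 (GRCm38). Mtap is at chr4:89137370-89181090 on the plus strand, Cdkn2a at chr4:89274473-89294619 and Cdkn2b at chr4:89306289-89311032, both on the minus strand. The gap between Mtap and Cdkn2a is 93.4 kb and that between Cdkn2a and Cdkn2b is 11.7 kb. The 300 bases around their starts are shown because 1 of these promoters belongs to a gene with transcripts in every library and 3 belong to genes with 0 counts. They are RefSeq sequences of GRCm38.p6, 250 bases before to 50 after each start, 5′ to 3′ on the strand of the gene, and capitals mark GC boxes, the Sp1-type motif GGGCGG on the printed strand.

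Mtap, chr4:89137120-89137419, plus strand: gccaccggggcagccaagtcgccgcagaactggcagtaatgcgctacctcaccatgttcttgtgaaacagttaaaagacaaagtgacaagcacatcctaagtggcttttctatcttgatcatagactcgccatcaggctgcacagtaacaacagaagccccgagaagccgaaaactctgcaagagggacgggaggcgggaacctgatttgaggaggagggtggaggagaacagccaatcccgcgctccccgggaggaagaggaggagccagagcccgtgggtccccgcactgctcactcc

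Cdkn2a downstream start (p16Ink4a), chr4:89282143-89282442, minus strand: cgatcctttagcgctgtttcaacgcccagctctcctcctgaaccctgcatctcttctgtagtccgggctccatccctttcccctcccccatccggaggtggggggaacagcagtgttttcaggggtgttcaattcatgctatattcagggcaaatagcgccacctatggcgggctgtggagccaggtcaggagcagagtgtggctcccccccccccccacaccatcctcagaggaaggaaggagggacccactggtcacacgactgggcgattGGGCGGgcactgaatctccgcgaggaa

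Cdkn2a upstream start (p19Arf), chr4:89294570-89294869, minus strand: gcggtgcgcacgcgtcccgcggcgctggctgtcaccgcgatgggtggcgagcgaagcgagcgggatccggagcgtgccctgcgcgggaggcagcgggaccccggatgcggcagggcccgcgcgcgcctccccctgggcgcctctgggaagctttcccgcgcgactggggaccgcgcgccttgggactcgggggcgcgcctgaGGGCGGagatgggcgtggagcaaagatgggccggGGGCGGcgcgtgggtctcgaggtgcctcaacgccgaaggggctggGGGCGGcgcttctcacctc

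Cdkn2b, chr4:89310983-89311282, minus strand: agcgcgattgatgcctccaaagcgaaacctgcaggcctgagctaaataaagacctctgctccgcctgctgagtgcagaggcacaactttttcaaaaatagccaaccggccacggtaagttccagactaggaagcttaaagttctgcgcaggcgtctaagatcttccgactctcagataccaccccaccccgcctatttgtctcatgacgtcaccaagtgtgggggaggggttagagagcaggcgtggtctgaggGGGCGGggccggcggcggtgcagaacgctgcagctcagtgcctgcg

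The Mtap window held no GC box and 14 CpG dinucleotides, at 57.0% G and C. The p16Ink4a window of Cdkn2a held 1 GC box and 12 CpG, and the p19Arf window held 3 GC boxes and 45 CpG, at 77.0% G and C. The Cdkn2b window held 1 GC box and 18 CpG. Among 32851 mouse promoter windows of this length, 35.7% held GGGCGG on either strand and 26.5% had at least 20 CpG, with a median of 7. A match is a description of the letters, and the sequence of the 4T1 genome was not read.

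The genes around the locus varied widely in level. Within 2 Mb on each side of Cdkn2a, a window chosen after the data were seen, 46 genes were counted and 26 (56.5%) had 0 counts in all libraries. This stretch holds the type I interferon cluster, and 11 of 17 genes named as interferons were at 0, as were 15 of the 29 other genes. Those 15 include Cdkn2a and Cdkn2b themselves. They also include a run of predicted genes with Gm numbers inside the interferon cluster, between Klhl9 and Ifna7. On the Mtap side, Wincr1, a long non-coding RNA, averaged 0.361 CPM over 15 libraries, Mir31 4.16 CPM, Klhl9, a cullin adaptor, 88.6 CPM and Mllt3, a chromatin reader, 33.7 CPM. On the Cdkn2b side the nearest counted gene, Dmrta1, 394 kb from Cdkn2a, had 0 counts. Farther out on that side, Zfp352, a zinc finger gene, had 68 counts in all and up to 1.69 CPM in a library, and Elavl2, a neuronal RNA-binding protein, had 1 count in all.

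**Figure D1:**
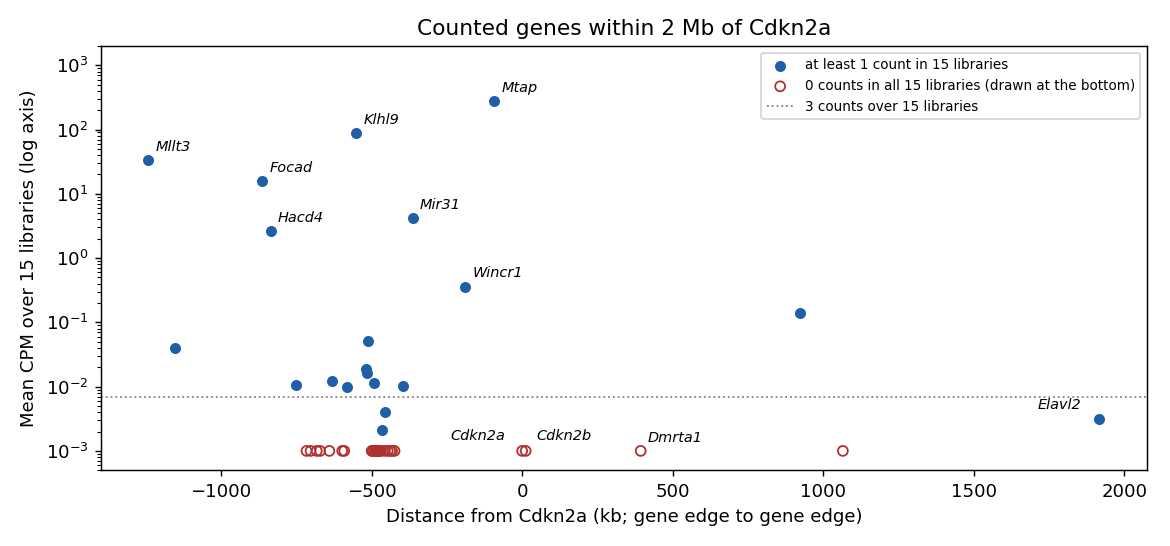
Mean CPM over 15 libraries (log axis) of the 46 counted genes within 2 Mb of Cdkn2a, against the distance from Cdkn2a in kb. Filled points had counts, open points had 0 counts in all libraries and are drawn at the bottom, and the dotted line is 3 counts over 15 libraries. Cdkn2a and Cdkn2b are open points at the bottom, while Mtap stands at 274 CPM.

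Trp53 (chr11:69580348-69591873, plus strand) was lower in every clone library than in every parental library. Its level was 16.5, 12.3 and 14.5 CPM in E1, 13.5, 13.4 and 9.78 CPM in E2, 10.7, 8.90 and 7.32 CPM in A, 14.7, 13.3 and 9.61 CPM in M, and 29.0, 18.8 and 21.1 CPM in the parental population. The highest clone library, E1 replicate 1 at 16.5 CPM, lay below the lowest parental library, replicate 2 at 18.8 CPM. Of the 12712 genes tested, 4.96% had all 12 clone libraries below all 3 parental ones. The log2 fold change against the parental population was −0.67 ± 0.22 (SE) for E1, −0.91 ± 0.24 for E2, −1.35 ± 0.24 for A and −0.87 ± 0.26 for M, with n = 3 per population. A had the lowest mean, 8.96 ± 1.67 CPM (SD, n = 3), and its libraries lay below all those of E1 but overlapped those of E2 and M. The parental mean was 22.96 ± 5.36 CPM, and it stood apart from the next population in the order, E1. The other neighbours in that order, E1, M, E2 and A, overlapped. Without E2 replicate 1 and parental replicate 1, the libraries with the largest share of the unnamed identifier, the log2 fold change was −0.46 for E1, −0.79 for E2, −1.17 for A and −0.66 for M. Within 1 Mb of Trp53, 63 neighbouring genes had a median log2 fold change of −0.0003 for E1, −0.11 for E2, −0.24 for A and −0.15 for M. A copy of the gene, Trp53-ps, was not among the identifiers counted, and whether it shares reads with Trp53 was not measured.

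Mdm2 (chr10:117688875-117710758, minus strand), the antagonist and target of p53, had another order of levels than Trp53. It had 47.5, 71.4 and 54.4 CPM in E1, 39.9, 58.6 and 47.7 CPM in E2, 38.8, 40.8 and 35.9 CPM in A, 47.3, 59.5 and 47.4 CPM in M, and 40.2, 33.8 and 40.8 CPM in the parental population. All libraries of E1 and M lay above all parental libraries, while those of E2 and A overlapped them. Against the parental population the log2 fold change was 0.59 ± 0.19 (SE, n = 3) for E1, 0.35 ± 0.18 for E2, 0.01 ± 0.10 for A and 0.43 ± 0.14 for M. The means of A (38.5 ± 2.47 CPM, SD) and the parental population (38.3 ± 3.86 CPM) differed by less than the spread between replicates. In the order of levels, E1, M, E2, A and parental, no 2 neighbours were separated beyond their replicates. Within 1 Mb of Mdm2, 11 neighbouring genes were tested against the parental population. Their median log2 fold change was 0.30 for E1 (10 above 0, 1 below) and 0.29 for M (9 above, 2 below). For E2 that median was 0.19 (9 above, 2 below), and for A it was 0.12 (6 above, 5 below). Whether the level of Mdm2 goes with its region was not tested.

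**Figure D2:**
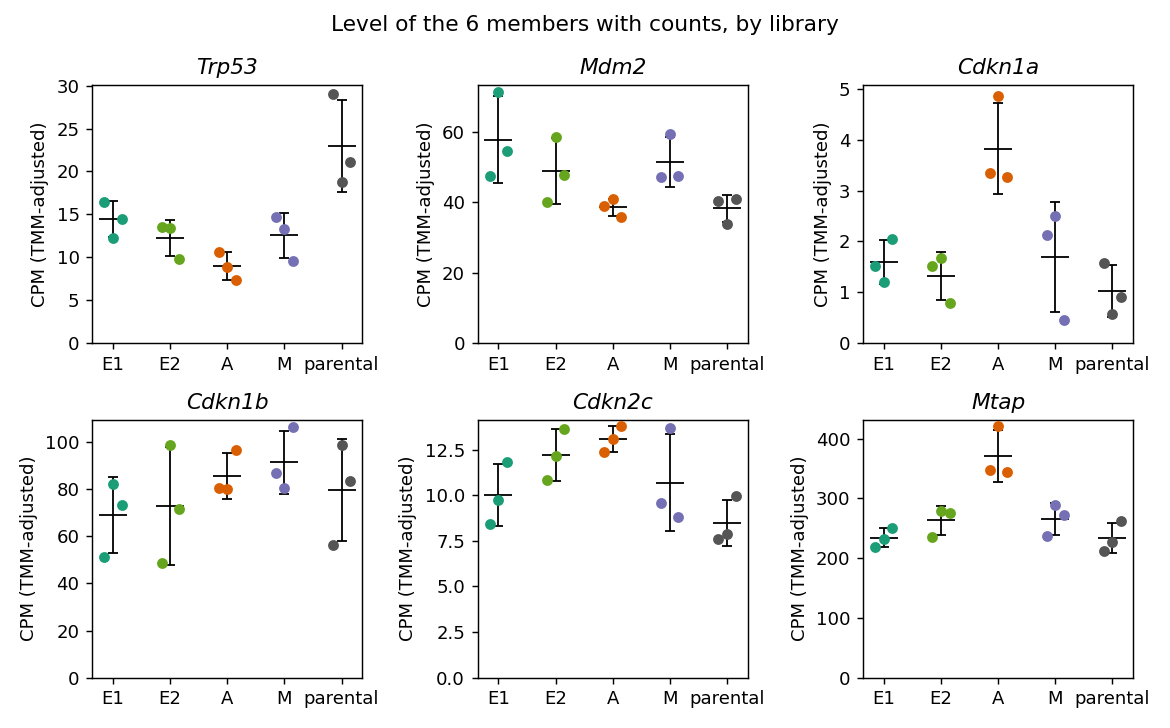
CPM of Trp53, Mdm2, Cdkn1a, Cdkn1b, Cdkn2c and Mtap in each of the 15 libraries, by population (E1, E2, A, M, parental). Points are libraries, with the mean and its SD beside them. The parental points of Trp53 all lie above those of the clones, and the A points of Cdkn1a and Mtap lie above all others.

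Cdkn1a (chr17:29090979-29100722, plus strand), the p21 gene and the best known arrest gene under p53, was low in all populations and highest in A. It had 1.51, 1.21 and 2.05 CPM in E1, 1.51, 1.68 and 0.79 CPM in E2, 3.35, 4.86 and 3.26 CPM in A, 2.12, 2.50 and 0.453 CPM in M, and 1.58, 0.574 and 0.913 CPM in the parental population. These values rest on 14 to 149 counts per library, with the lowest count in M replicate 3. Every A library exceeded the other 12 libraries, as was the case for 8.66% of the genes tested. In the fit over all genes, A was called against the parental population and E2. It was not called against E1 (log2 fold change of A over E1 1.225 ± 0.28, SE), nor was M against A (−1.145 ± 0.75). The log2 fold change against the parental population was 0.62 ± 0.45 (SE, n = 3) for E1, 0.36 ± 0.51 for E2, 1.85 ± 0.43 for A and 0.70 ± 0.83 for M. The libraries of E1, E2 and M overlapped the parental ones. Without E2 replicate 1 and parental replicate 1 the value was 1.03 for E1, 0.66 for E2, 2.23 for A and 1.12 for M.

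RefSeq gives Cdkn1a a pair of starts 2.79 kb apart. The upstream start is shown because its window is the one among the 11 member windows with 2 matches to the 10-base p53 consensus, copies of which make up the element that p53 binds in its target genes. Capitals mark both matches, which begin 73 and 51 bases before the start. Only exact matches are marked. The 10 bases directly after the later match, tgacatgttc, come close to the consensus and are not marked. Which copies p53 binds was not measured.

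Cdkn1a upstream start, chr17:29090729-29091028, plus strand, GRCm38.p6: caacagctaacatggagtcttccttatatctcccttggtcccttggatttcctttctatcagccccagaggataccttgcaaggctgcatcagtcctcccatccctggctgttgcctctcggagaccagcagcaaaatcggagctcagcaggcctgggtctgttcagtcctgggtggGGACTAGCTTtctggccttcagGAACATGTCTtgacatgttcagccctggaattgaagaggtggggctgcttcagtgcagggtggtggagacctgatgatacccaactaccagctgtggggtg

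A match to this consensus, which reads the same on both strands, was found in 8.36% of the 32851 promoter windows. The windows of Mdm2 (GAACTTGCCT) and Trp53 (GGACTTGCCC) held 1 match each, and the windows of the other members held none. The counts do not separate transcripts from the starts of Cdkn1a.

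Cdkn1b (chr6:134920401-134925525, plus strand), the p27 gene, showed no difference beyond the replicates. It had 51.1, 82.4 and 73.4 CPM in E1, 48.5, 98.5 and 71.7 CPM in E2, 80.3, 79.9 and 96.7 CPM in A, 86.8, 80.6 and 106.5 CPM in M, and 56.3, 98.7 and 83.6 CPM in the parental population. The libraries of each clone overlapped the parental ones. Against the parental population the log2 fold change ranged over the clones between −0.21 ± 0.32 (SE, n = 3) for E1 and 0.20 ± 0.27 for M, and was −0.12 ± 0.38 for E2 and 0.11 ± 0.26 for A. Without E2 replicate 1 and parental replicate 1 it was −0.40 for E1, −0.11 for E2, −0.12 for A and 0.007 for M, so the sign for A turned. Replicate 1 was the lowest library of E1, of E2 and of the parental population.

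Cdkn2c (chr4:109660876-109666756, minus strand), an INK4 gene on the same chromosome as the Cdkn2a-Cdkn2b pair but outside its window, was transcribed in every library. It had 8.44, 9.71 and 11.8 CPM in E1, 10.8, 12.2 and 13.6 CPM in E2, 12.4, 13.1 and 13.8 CPM in A, 9.56, 13.7 and 8.80 CPM in M, and 7.61, 7.88 and 9.95 CPM in the parental population. All libraries of E2 and A exceeded all parental ones, and those of E1 and M overlapped them. Against the parental population the log2 fold change was 0.23 ± 0.18 (SE, n = 3) for E1, 0.52 ± 0.15 for E2, 0.62 ± 0.13 for A and 0.33 ± 0.23 for M. Neighbours in the order A, E2, M, E1 and parental all overlapped.

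Mtap had 219, 232 and 251 CPM in E1, 235, 279 and 276 CPM in E2, 348, 421 and 344 CPM in A, 237, 289 and 272 CPM in M, and 212, 227 and 262 CPM in the parental population. Every A library lay above the other 12 libraries, as was the case for 8.66% of the genes tested. The other populations overlapped each other. The log2 fold change against the parental population was 0.67 ± 0.13 (SE, n = 3) in A, against values of 0.002 ± 0.11 in E1, 0.17 ± 0.12 in E2 and 0.19 ± 0.12 in M. Without E2 replicate 1 and parental replicate 1 the value for A was 0.58. In A the 5 neighbours tested within 1 Mb had a median log2 fold change of −0.08. Of these, 2 lay above 0 and 3 below, over a range of −0.63 to 1.59. Within 2 Mb of Cdkn2a the 7 genes tested, Mtap among them, had a median of 0.67 in A, which is the value of Mtap itself. The others in A were at 1.07 (Mllt3), −0.63 (Focad), 0.98 (Hacd4), −0.08 (Klhl9), 1.59 (Mir31) and −0.10 (Wincr1). The median of the 7 genes was 0.06 in E1, 0.17 in E2, again the value of Mtap itself, and 0.50 in M. Whether the level of Mtap goes with its region was not tested.

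**Figure D3:**
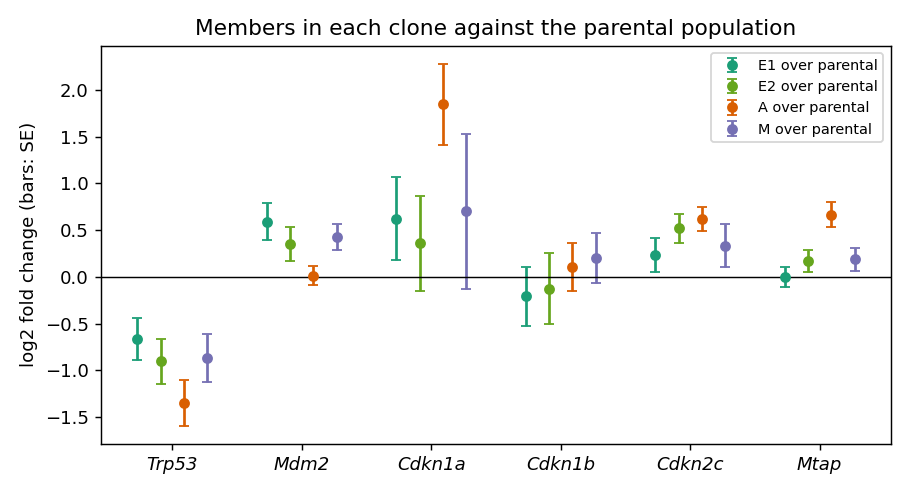
Log2 fold change of the 6 genes with counts in E1, E2, A and M, each over the parental population. Points are estimates and bars their SE (n = 3 per population). All Trp53 points lie below 0, the Cdkn1a and Mtap points of A lie highest for their genes, and the Cdkn1b bars all span 0.

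Of the 8 genes, 6 passed the filter on low counts and 2, Cdkn2a and Cdkn2b, did not. In the fit over all genes, 15.1% of the genes tested were called for E1 against the parental population, 17.9% for E2, 30% for A and 14.1% for M. Members beyond that threshold numbered 2 of 6 for E1 (Mdm2 and Trp53), 1 for E2 (Trp53), 4 for A (Cdkn1a, Cdkn2c, Mtap and Trp53) and 1 for M (Trp53). Replicates did not overlap the parental ones for 2 members in E1 (33.4% of all genes tested), 2 members in E2 (32.6%), 4 members in A (44.6%) and 2 members in M (29.3%). Since the genes were listed for these differences, nothing is read from these counts. Between clones, 5 of 6 members did not overlap in A against E1 (47.1% of all genes), 2 in A against E2 (38.9%) and 3 in M against A (35.1%). None was separated in E2 against E1, M against E1 or M against E2, where 15.1%, 21.8% and 19.4% of all genes were. On a scale of CPM per kilobase of exon, the order of mean levels over 15 libraries was Mtap (84.8), Cdkn1b (17.5), Mdm2 (9.24), Cdkn2c (4.05), Trp53 (3.52) and Cdkn1a (0.532).

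Among the 30 genes listed as p53 targets, calls went in both directions in E1, E2 and A, as they did over all genes tested. Of 27 tested, 4 rose and 2 fell in E1, 2 rose and 2 fell in E2, 3 rose and 7 fell in A, and 2 rose in M. Of all genes tested, 7.77% rose and 7.35% fell in E1, and 9.14% rose and 8.8% fell in E2. In A 15.1% rose and 14.9% fell, and in M 7.87% rose and 6.28% fell. The same shares stand beside the list counts below. Over 24 alternative settings the number that rose ranged over 2 to 5 for E1, 2 to 5 for E2, 3 to 5 for A and 1 to 3 for M, and the number that fell over 1 to 2 for E1, 0 to 4 for E2, 5 to 8 for A and 0 to 1 for M. Their median log2 fold change was 0.08 for E1, 0.15 for E2, 0.01 for A and −0.01 for M, beside −0.01, 0.01, 0.03 and −0.01 for all genes tested. Pmaip1 and Eda2r had 0 counts in all libraries and Gdf15 had 3 counts in all. Adjusted p-values here and below are from edgeR's quasi-likelihood test with Benjamini-Hochberg adjustment over 12712 genes, and the call of a gene named below was kept in all 24 settings unless said otherwise. Counts over a list also hold calls that were lost under some settings, and their ranges are given.

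Perp, a membrane protein of desmosomes and apoptosis and a p53 target, rose in all 4 clones. It had 147, 179 and 161 CPM in E1, 162, 207 and 157 CPM in E2, 133, 153 and 166 CPM in A, 138, 139 and 175 CPM in M, and 57.7, 102.7 and 78.3 CPM in the parental population. Every clone library lay above every parental one, as was the case for 3.96% of the genes tested. Summed epithelial markers were 368 to 477 CPM for E1, 433 to 466 CPM for E2, 563 to 631 CPM for A, 331 to 604 CPM for M and 269 to 299 CPM for the parental population, and their part in the level of Perp was not tested. On the log2 scale the fold change was 1.03 ± 0.25 (SE) in E1 (adjusted p = 0.000183), 1.14 ± 0.27 in E2 (adjusted p = 4.39e-05), 0.92 ± 0.26 in A (adjusted p = 0.000184) and 0.92 ± 0.27 in M (adjusted p = 0.000549).

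Plk2, a polo-like kinase induced by p53, rose in E1 and fell in A. It had 134, 187 and 163 CPM in E1, 93.5, 135.5 and 86.1 CPM in E2, 14.1, 21.1 and 17.8 CPM in A, 73.8, 90.9 and 72.5 CPM in M, and 70.9, 57.9 and 103.0 CPM in the parental population. The A libraries were the lowest of all, as was the case for 6.76% of the genes tested. The E1 libraries lay above the parental ones, as for 16.8% of the genes tested. Its log2 fold change was 1.06 ± 0.28 in E1 (adjusted p = 0.00101) and −2.13 ± 0.30 in A (adjusted p = 9.84e-08).

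Other p53 targets that changed in A included genes of the damage response and of cell death. Aen, an apoptosis-enhancing nuclease, fell to 2.30 ± 0.30 CPM in A, against 7.94 ± 1.53 CPM in the parental population (log2 fold change −1.76, adjusted p = 5.16e-05). Gadd45a, a growth arrest and damage gene, fell to 4.17 ± 0.59 CPM in A, against 11.6 ± 1.80 CPM in the parental population (log2 fold change −1.47, adjusted p = 1.04e-05). Phlda3, an inhibitor of Akt signalling, rose to 9.91 ± 1.83 CPM in A, against 3.93 ± 1.01 CPM in the parental population (log2 fold change 1.31, adjusted p = 0.00129). Apaf1, the scaffold of the apoptosome, rose to 52.7 ± 2.20 CPM in A, against 30.3 ± 7.09 CPM in the parental population (adjusted p = 0.00082). Its call in M (log2 fold change 0.57, adjusted p = 0.0258) was lost under 6 settings, among them the fits without M replicate 1 or 3 or without parental replicate 1 or 3, with adjusted p up to 0.169.

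Single targets moved in E1 and E2. Trp53inp1, a stress-induced partner of p53, fell to 8.60 ± 1.71 CPM in E1, against 21.9 ± 10.1 CPM in the parental population (log2 fold change −1.35 ± 0.40, adjusted p = 0.00526). Sfn, the 14-3-3 sigma checkpoint gene, rose to 5.09 ± 1.58 CPM in E2, against 1.35 ± 0.97 CPM in the parental population (log2 fold change 1.89 ± 0.86, adjusted p = 0.0068). Bbc3 (Puma), an activator of apoptosis, fell to 4.59 ± 1.77 CPM in E2, against 9.89 ± 0.49 CPM in the parental population (adjusted p = 0.00831), and its adjusted p was 0.091 when E2 replicate 1 and parental replicate 1, the libraries with the largest share of the top identifier, were left out together. In A its log2 fold change was −0.75 (adjusted p = 0.0422), a call lost without A replicate 2 or 3 or any 1 parental replicate, with adjusted p up to 0.173. The call of the death receptor gene Tnfrsf10b in E2 (log2 fold change −0.64, adjusted p = 0.0294) was lost without E2 replicate 1 or 2 or parental replicate 2 or 3, with adjusted p up to 0.118. That of Ckap2, a spindle protein, in E1 (log2 fold change 0.81, adjusted p = 0.0227) was lost without E1 replicate 2 or 3 or parental replicate 1 or 2, with adjusted p up to 0.122.

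Among 16 regulators and relatives of p53, 14 were tested. Trp63 and Trp73, which encode the p53 relatives, had 20 counts and 1 count over all libraries and were not tested. In E1, 1 rose and 2 fell, in E2 1 rose and 2 fell, in A 2 rose and 2 fell, and in M 1 fell. Over the 24 settings those that rose numbered 0 to 1 for E1, 1 for E2, 0 to 2 for A and 0 to 1 for M, and those that fell 0 to 2 for E1, 0 to 3 for E2, 2 to 3 for A and 0 to 1 for M. Mdm4, the partner of Mdm2 in restraining p53, fell to 25.6 ± 3.45 CPM in A, against 39.9 ± 4.33 CPM in the parental population (log2 fold change −0.64, adjusted p = 0.00556). In E2 the log2 fold change of Mdm4 was −0.59 (adjusted p = 0.0166), and the call was lost without E2 replicate 2 or parental replicate 2 or 3, with adjusted p up to 0.0772. Atr, a kinase upstream of p53, rose to 74.1 ± 6.47 CPM in E2, against 41.9 ± 12.4 CPM in the parental population (log2 fold change 0.82, adjusted p = 0.00121). In A its log2 fold change was 0.53 (adjusted p = 0.018), and the call was lost without A replicate 1 or parental replicate 1, with adjusted p up to 0.206.

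Cdkn2aip encodes a protein that binds p19Arf and p53. It fell in all 4 clones, to 14.5 ± 1.63 CPM for E1, 14.2 ± 2.03 CPM for E2, 10.7 ± 1.56 CPM for A and 13.5 ± 2.76 CPM for M, against 22.4 ± 3.42 CPM for the parental population. Expressed as a log2 fold change, the difference was −0.62 for E1 (adjusted p = 0.033), −0.65 for E2 (adjusted p = 0.0218), −1.05 for A (adjusted p = 0.000188) and −0.73 for M (adjusted p = 0.013). The call held in all settings for A. It was lost in E1 without E1 replicate 2 or 3 or parental replicate 1 or 3 (adjusted p up to 0.148), in E2 without E2 replicate 1 or parental replicate 1 or 3 (up to 0.239), and in M without M replicate 3 or parental replicate 1 (up to 0.0986). Usp7, the deubiquitinase of Mdm2 and p53, was called in E1 (log2 fold change 0.47, adjusted p = 0.0211) but not without E1 replicate 2 or 3 or parental replicate 1 or 2, with adjusted p up to 0.0907. The calls of the ubiquitin ligase gene Cop1 in E1 (log2 fold change −0.45, adjusted p = 0.0405) and of the kinase gene Atm in A (log2 fold change 0.43, adjusted p = 0.0445) were lost under 10 and 13 of the 24 settings, with adjusted p up to 0.195 and 0.308. The libraries whose removal ended them were each of E1 and A and parental replicates 1 and 3 for Cop1, and each of E1 and A, E2 replicate 3, M replicate 3 and parental replicates 1 and 3 for Atm.

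**Figure D4:**
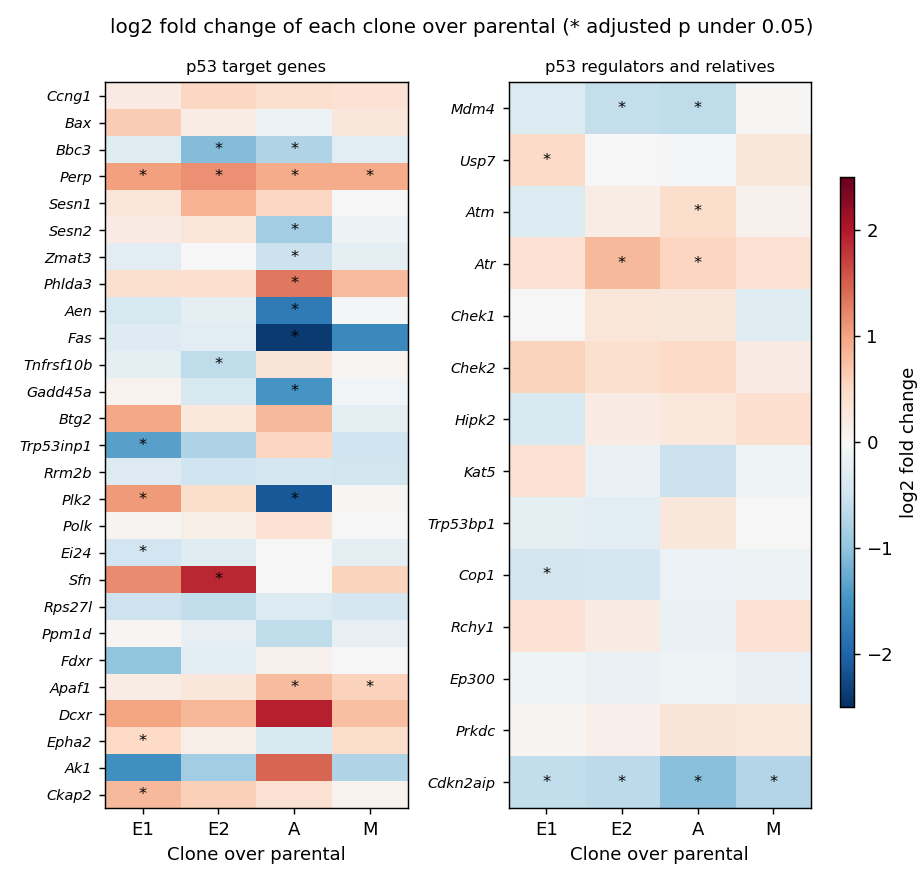
Log2 fold change of the tested genes of the p53 lists in E1, E2, A and M, each over the parental population, as a colour scale. A mark on a cell stands for an adjusted p under 0.05. Perp is marked as higher in all 4 clones and Cdkn2aip as lower in all 4, while Plk2 is marked higher in E1 and lower in A.

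Of 5 other CDK inhibitors and CDK-binding proteins, Cdkn1c (p57) had 0 counts in all libraries and 4 were tested. In A, 1 was called: Cdkn2d (p19Ink4d), the remaining INK4 gene, had 2.66 ± 0.61 CPM in A, against 0.855 ± 0.63 CPM in the parental population (adjusted p = 0.041), a call lost under 8 settings with adjusted p up to 0.165, among them the fits without E2 replicate 3, any 1 replicate of A or parental replicate 1 or 2. It has under 5 CPM and was named after its value was seen. In E1, E2 and M the edgeR test called 0 of 4, with 1, 2 and 0 genes at an unadjusted p under 0.05, and DESeq2 also called 0. Of 12 G1 cyclins, CDKs and p27 turnover genes, all tested, 1 rose in E2, 1 in A and 2 in M. Over the 24 settings 0 to 1 rose for E2, 1 for A and 1 to 2 for M, while 0 to 1 fell for each of E1, E2 and A. In E1 edgeR called 0 of 12, with 1 at an unadjusted p under 0.05, and DESeq2 called 0.

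Ccnd1, cyclin D1, the partner of CDK4 and CDK6, had 478, 467 and 422 CPM in E1, 484, 537 and 566 CPM in E2, 822, 792 and 717 CPM in A, 888, 885 and 703 CPM in M, and 397, 385 and 423 CPM in the parental population. The A and M libraries lay above all other libraries, and the share of all genes with that pattern was not counted. Of the genes tested, 23.5% had all A libraries above all parental ones, and 14.2% had all M libraries above them. The log2 fold change was 0.95 ± 0.07 in A (adjusted p = 7.12e-06) and 1.04 ± 0.12 in M (adjusted p = 7.69e-06). In E2 it was 0.40 ± 0.08 (adjusted p = 0.0441), and that call was lost under 15 of the 24 settings, with adjusted p up to 0.198. Among them were the fits without any 1 replicate of E1, A or the parental population, E2 replicate 2 or 3, or M replicate 2. Ccnd2, cyclin D2, was called in M (log2 fold change 0.55, adjusted p = 0.0174) but not without M replicate 1 or 3 or parental replicate 1, with adjusted p up to 0.0759. Cdk4 averaged 62.3 ± 1.05 CPM for E1, 63.2 ± 4.03 CPM for E2, 69.0 ± 0.90 CPM for A, 67.7 ± 7.78 CPM for M and 64.6 ± 9.32 CPM for the parental population, and the libraries of each clone overlapped the parental ones. Cdk4 was named after its values were seen.

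The 13 genes of the RB and E2F family, the targets of CDK4 and CDK6 and their partners, were all tested. In E1, 2 rose and 1 fell, in E2 4 rose and 4 fell, in A 5 rose and 2 fell, and in M 2 rose and 1 fell. Over the 24 settings those that rose numbered 2 to 4 for E1, 3 to 5 for E2, 5 for A and 1 to 4 for M, and those that fell 0 to 2 for E1, 2 to 4 for E2, 2 to 3 for A and 0 to 2 for M. Tfdp1, a partner of the E2F proteins, accounted for the call that fell in M (log2 fold change −0.55, adjusted p = 0.0141), which was lost without M replicate 2 or parental replicate 3, with adjusted p up to 0.0875. Its mean was 33.61 CPM in M, 31.85 CPM in A, 35.92 CPM in E2 and 42.17 CPM in E1, against 49.19 CPM in the parental population. Rbl1 (p107), a relative of RB, rose to 67.8 ± 12.9 CPM for E1 (adjusted p = 0.00027), 70.9 ± 9.27 CPM for E2 (adjusted p = 0.000103) and 57.6 ± 3.15 CPM for A (adjusted p = 0.00176), against 35.8 ± 6.58 CPM for the parental population. Rbl2 (p130) rose to 24.0 ± 2.01 CPM in A, against 12.8 ± 2.03 CPM in the parental population (adjusted p = 0.000592). Rb1 itself had a log2 fold change of −0.75 in E1 (adjusted p = 0.0214), a call lost without E1 replicate 2 or 3 or parental replicate 2 or 3, with adjusted p up to 0.137. In E2 it was −0.77 (adjusted p = 0.016), a call lost without E2 replicate 1 or parental replicate 3, with adjusted p up to 0.11.

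E2f8, a repressor of the E2F family, rose in A and M. It had 13.0, 14.5 and 17.3 CPM in E1, 18.2, 12.8 and 18.9 CPM in E2, 36.0, 31.3 and 31.6 CPM in A, 16.1, 26.8 and 17.1 CPM in M, and 10.1, 9.68 and 10.5 CPM in the parental population. The A libraries exceeded all others, as was the case for 8.66% of the genes tested. Its log2 fold change was 1.70 ± 0.07 in A (adjusted p = 4.3e-07) and 0.99 ± 0.23 in M (adjusted p = 0.00121). In E2 it was 0.72 (adjusted p = 0.0136), a call lost without E2 replicate 3, with adjusted p up to 0.091. E2f7, its close relative, rose in E1 (log2 fold change 1.15, adjusted p = 0.000699) and in E2 (0.94, adjusted p = 0.00371), and its call in M (0.80, adjusted p = 0.0142) was lost without M replicate 2 or parental replicate 1 or 2, with adjusted p up to 0.107. E2f1, an activator, rose in E2 (0.99, adjusted p = 0.00598) and A (0.96, adjusted p = 0.00377), while E2f4, a partner of p107 and p130, fell in E2 (−0.60, adjusted p = 0.00694) and A (−1.03, adjusted p = 1.05e-05). E2f6 fell in E2 (−0.80, adjusted p = 0.00673), with an adjusted p of 0.0686 when E2 replicate 1 and parental replicate 1 were left out together. Several of these genes are themselves E2F targets, and the summed proliferation markers given above also differed between populations. Their part in these values was not tested.

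**Figure D5:**
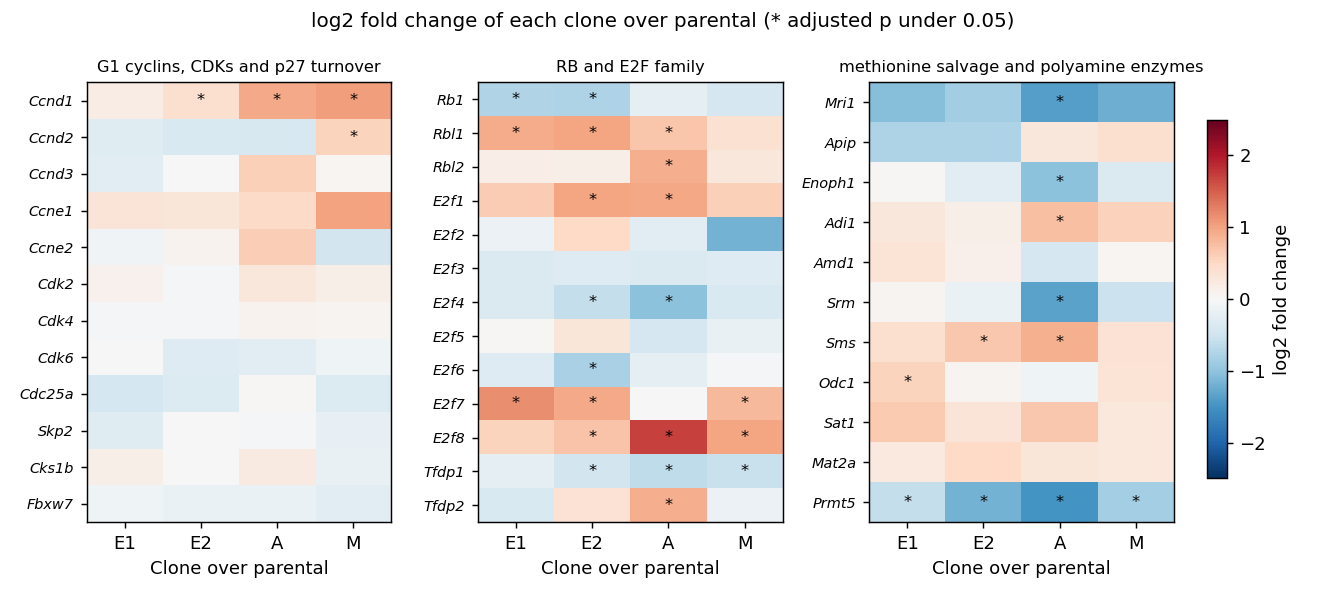
Log2 fold change of the tested genes of the G1, the RB and E2F, and the methionine and polyamine lists in E1, E2, A and M, each over the parental population, as a colour scale. A mark on a cell stands for an adjusted p under 0.05. Ccnd1 and E2f8 are marked as higher in E2, A and M, and Prmt5 as lower in all 4 clones.

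Mtap clears methylthioadenosine, a by-product of polyamine synthesis and an inhibitor of the arginine methyltransferase PRMT5. Of 11 genes of methionine salvage and polyamine synthesis, 1 rose and 1 fell in E1, 1 rose and 1 fell in E2, 2 rose and 4 fell in A, and 1 fell in M. Over the 24 settings those that rose numbered 1 to 3 for E1, 0 to 2 for E2, 1 to 4 for A and 0 to 1 for M, and those that fell 0 to 1 for E1, 1 for E2, 3 to 5 for A and 1 to 2 for M. Prmt5 had 21.9, 18.8 and 17.4 CPM in E1, 14.9, 12.1 and 11.9 CPM in E2, 11.5, 11.5 and 8.12 CPM in A, 19.0, 16.3 and 13.5 CPM in M, and 31.8, 28.6 and 27.5 CPM in the parental population. All clone libraries lay below all parental ones, as was the case for 4.96% of the genes tested. Expressed as a log2 fold change, the difference was −1.18 ± 0.12 in E2 (adjusted p = 7.57e-05), −1.49 ± 0.18 in A (adjusted p = 9.85e-07) and −0.85 ± 0.15 in M (adjusted p = 0.00243). In E1 it was −0.59 ± 0.12 (adjusted p = 0.0288), a call lost without E1 replicate 2 or 3 or any 1 parental replicate, with adjusted p up to 0.132.

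The 6 genes of this list called in A included Prmt5 and both polyamine synthases. Enoph1, an enzyme of the salvage pathway, fell to 6.45 ± 0.63 CPM in A, against 13.2 ± 2.35 CPM in the parental population (log2 fold change −1.03, adjusted p = 0.00126). Srm, spermidine synthase, fell to 8.02 ± 0.32 CPM in A, against 20.3 ± 4.68 CPM in the parental population (log2 fold change −1.33, adjusted p = 1.79e-05). Sms, spermine synthase, rose to 75.6 ± 7.73 CPM in A, against 40.6 ± 5.48 CPM in the parental population (log2 fold change 0.90, adjusted p = 0.00011). In E2 Sms had a log2 fold change of 0.68 (adjusted p = 0.0039), with an adjusted p of 0.0631 without E2 replicate 3. Odc1, ornithine decarboxylase, rose to 282 ± 20.3 CPM in E1, against 192.5 ± 18.1 CPM in the parental population (log2 fold change 0.55, adjusted p = 0.00442).

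Of 17 listed genes around the Cdkn2 locus, 5 had 0 counts in all libraries and 8 were tested. The list reaches beyond the 2 Mb window described above, and Haus6, Plin2, Dennd4c and Rps6 lie outside that window. In E1, 2 rose and 1 fell, in E2 2 rose and 1 fell, in A 2 rose and 1 fell, and in M 2 rose and 2 fell. Over the 24 settings those that rose numbered 1 to 2 for E1, 2 for E2, 1 to 3 for A and 1 to 2 for M, and those that fell 0 to 1 for E1, 1 for E2, 0 to 2 for A and 0 to 2 for M. Mllt3 rose to 36.2 ± 7.67 CPM in E2 (adjusted p = 0.00149), 43.5 ± 1.89 CPM in A (adjusted p = 2.76e-05) and 37.9 ± 2.62 CPM in M (adjusted p = 0.000863), against 20.6 ± 4.56 CPM in the parental population. Its call in E1 (log2 fold change 0.55, adjusted p = 0.0299) was lost without any 1 replicate of E1 or parental replicate 1 or 3, with adjusted p up to 0.192. Haus6, a subunit of the augmin complex of the spindle, rose to 61.8 ± 7.07 CPM in E1 (adjusted p = 3.03e-05) and 60.1 ± 10.2 CPM in E2 (adjusted p = 3.44e-05), against 29.2 ± 4.10 CPM in the parental population. Rps6, a ribosomal protein gene whose reads may be shared with processed copies, fell to 41.1 ± 5.42 CPM in E2, against 83.9 ± 30.2 CPM in the parental population (adjusted p = 0.000232). The calls of Rps6 in E1 (log2 fold change −0.77, adjusted p = 0.00402) and M (−0.70, adjusted p = 0.00825) were lost without parental replicate 1, with adjusted p up to 0.0559 and 0.122. In M, Haus6 (log2 fold change 0.47, adjusted p = 0.0421) and Plin2, a lipid droplet protein (−0.50, adjusted p = 0.0493), were called, and those calls were lost under 13 and 17 of the 24 settings, with adjusted p up to 0.202 and 0.181. Each was lost without any 1 replicate of M or parental replicate 1 or 3, and without some single libraries of the other clones. Dennd4c was called in A (log2 fold change 0.54, adjusted p = 0.00484), with an adjusted p of 0.0598 without parental replicate 1. Focad had a log2 fold change of −0.63 in A (adjusted p = 0.0166), a call lost without A replicate 1 or parental replicate 2 or 3, with adjusted p up to 0.069. Over these pathway and locus lists together, 89 of 104 genes were tested, and the genes called were 17 (19.1%) for E1, 21 (23.6%) for E2, 32 (36%) for A and 13 (14.6%) for M, beside 15.1%, 17.9%, 30% and 14.1% of all genes tested.

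For each of the 6 genes with counts, the genes most like it were taken by Pearson's r of log2 CPM over the 15 libraries. They share libraries, scaling and the differences between populations, so r is a description. Trp53 was most like Prpf3 (r = 0.956), a spliceosome protein, Prmt5 (r = 0.933) and Srp68 (r = 0.930), a subunit of the signal recognition particle. Mdm2 was most like Cep83 (r = 0.882), Slc4a8 (r = 0.865) and Adipor2 (r = 0.863), and Cdkn1a most like Mcm4 (r = 0.919), a subunit of the replicative helicase, Lxn (r = 0.867) and Lmo1 (r = 0.832). For Cdkn1b these were Fnip1 (r = 0.907), Itgb1 (r = 0.906) and Mtmr2 (r = 0.897), and for Cdkn2c Slc2a9 (r = 0.916), Rap2b (r = 0.916) and Garnl3 (r = 0.894). Mtap was most like Ctnnb1 (r = 0.949), the beta-catenin gene, Slco2a1 (r = 0.941) and Itgb2 (r = 0.931). Among the members themselves, r was −0.73 between Trp53 and Mtap, −0.70 between Trp53 and Cdkn2c and 0.745 between Cdkn2c and Mtap, and it was −0.07 between Trp53 and Mdm2.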

How the data were processed

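The counts are whole reads per gene, made and deposited by the authors with HISAT2 and featureCounts on GRCm38 (mm10), per the submitters' processing notes. Versions and the strand setting of the counting are not given in the sources used here, so the reads of overlapping antisense partners cannot be told apart. Gm12610, a long non-coding RNA, overlaps Cdkn2b, and Gm12607, a pseudogene, overlaps Mtap. Neither was among the identifiers counted. The deposited normalized tables were not used here. Of 27179 identifiers, 25275 were named by RefSeq, 18 by GENCODE, and 1886 stayed unnamed. R 4.3.3 and edgeR 4.0.16 (limma 3.58.1) were used. The filter filterByExpr (minimum count 10, minimum total 15) kept 12712 genes, TMM factors were 0.847 to 1.11, and the quasi-likelihood model held the population alone, with a prior count of 2. The common dispersion was 0.0651. Genes were called at an adjusted p under 0.05 within each comparison. SE values come from the SD of log2 CPM. The fit was also run on simulated counts, and the outcome is not given here.

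The members, the gene lists and the rule for naming genes were chosen with earlier results of these data known. The rule took, per list and clone, up to 4 called genes with the largest log2 fold changes, at least 5 CPM and no overlap of replicates. A gene it took for 1 clone may be given for others. It also took the 3 most like genes per member. The windows of 1 Mb and 2 Mb were chosen after the data were seen. The labels call the replicates biological but do not say that they came from separate cultures, so p-values measure the spread between these samples. DESeq2 1.42.0, other scalings and filters, a replicate block and left-out libraries were alternatives.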

Additional observations from a re-analysis of the deposited data

Results flagged for a closer look

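Plk2 stood out because its changes in 2 clones had opposite directions. Against the parental population its log2 fold change was −2.13 in A and 1.06 in E1, and the test between these clones gave a log2 fold change of −3.19 ± 0.22 (SE, n = 3 each, adjusted p = 5.19e-10, edgeR) for A versus E1. All 3 A libraries (14.1 to 21.1 CPM) lay below all 3 E1 libraries (134 to 187 CPM), as was the case for 23.4% of the genes tested.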

How the results depend on the processing

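No called result reversed its direction under any of the 24 alternatives. The genes called in E2 against the parental population numbered 2281, or 1440 without E2 replicate 1 and parental replicate 1 together. Those called in E2 against E1 numbered 30, and 128 with no filter, 128 with DESeq2, 68 with a replicate block, 65 with the share of the top identifier as a term and 64 without that pair of libraries. M against E1 gave 495, and 817 with no filter and 781 with the share term. M against E2 gave 445, and 790, 743 (DESeq2), 699 (replicate block), 760 (share term) and 174 (only the 2 populations). The cause was not tested. With the share term, the log2 fold change of Mdm2 in A was −0.12 (main 0.01, −0.07 to 0.06 with 1 replicate left out) and that of Cdkn2c in A 0.45. With 1 replicate left out, calls ranged over 1084 to 2083 in E1 (main 1922), 1145 to 1975 in M (main 1798), 9 to 46 in E2 against E1, 210 to 824 in M against E1, 208 to 723 in M against E2 and 1479 to 2411 in M against A (main 2256). The lowest was without E1 replicate 2 in E1, M replicate 3 in M and in M against E2, E2 replicate 3 in E2 against E1, E1 replicate 3 in M against E1 and A replicate 3 in M against A. Pathway genes called ranged over 8 to 18 in E1 and 8 to 16 in M. Of the 3 genes most like a member, Spearman's rho kept 0 for Trp53, 1 for Cdkn1b and 1 for Mtap, and population means kept 0 for each of the 6 members. The labels give no pairing by replicate number, and the main fit held none. Of 30 same-numbered pairs of libraries, 4 correlated above 0.1. The median was 0.0539, against −0.0287 for other-numbered pairs, so a weak pairing is not excluded. With the replicate block, the clones E1, E2, A and M had 2255, 2674, 4156 and 2207 calls, against 1922, 2281, 3814 and 1798 in the main fit. Depth limits Cdkn1a, with 14 to 149 counts per library.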
